A study of Mus musculus with 6 samples.

Results

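The constitutive proteasome subunit genes are those of the Psm family that build the standard protein-degrading complex of the cell, together with its activators, its inhibitor and its assembly chaperones. They were taken by name from the table of expression values: protein-coding genes called Psm followed by a letter from a to g and a number, leaving out the interferon-inducible Psmb8, Psmb9, Psmb10, Psme1 and Psme2. This gave 42 of the 26595 genes in the table. Psme2b, a near-copy of Psme2, and Psmc3ip, named for a protein that binds Psmc3, carry extra letters and stayed outside.

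The study used HT22, a mouse line immortalised from hippocampal neurons and labelled as wild type in genotype, and exposed it to interleukin 17 (IL-17), an inflammatory cytokine, and stated as its purpose the relation between this cytokine and JAK1-STAT6 signalling. Cells exposed to IL-17 gave 3 libraries, and cells given no special treatment gave the 3 control libraries. All cells were grown in serum-containing medium. The labels give no dose or duration and do not say whether the libraries are separate cultures, so p-values measure a spread that may be technical.

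The proteasome consists of a barrel, the 20S core, whose outer alpha rings gate the entry of substrates and whose inner beta rings hold the protein-cutting sites. A 19S cap binds ubiquitin-tagged proteins, removes the tag and unfolds them with a ring of ATPases. Under interferon, cells also make inducible beta subunits that replace the constitutive catalytic ones in newly built cores and alter the peptides offered to T cells. When proteasome activity falls short, the transcription factor Nfe2l1 is known to raise the subunit genes together.

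Values are FPKM, fragment numbers scaled to transcript length and library size, as deposited by the authors. They summed to between 365967 and 378624 in IL-17 libraries and between 365534 and 383093 in control libraries. Read counts were not part of the data; regular steps among the lowest values correspond to 15700000 to 17500000 fragments per library if the more common step is 1 fragment, or to 31400000 to 34900000 if a finer step is. Tests used log2(FPKM + 1) in limma over all 12953 genes with a mean of at least 0.5 FPKM, and a gene was called at a Benjamini-Hochberg adjusted p under 0.05. All 42 subunit genes passed this filter. Of the 7 neuronal markers in the table only Tubb3 reached a mean of 1 FPKM, at 12.8 FPKM, with 11.9, 11.1 and 11.8 FPKM under IL-17, against 13.7, 14.8 and 13.3 FPKM in controls, without overlap (limma adjusted p = 0.0928). The other 6 were near 0, among them Map2 at 0.242 FPKM and Rbfox3 at 0.0127 FPKM. Of the 7 macrophage markers Cd68 averaged 253.3 FPKM and Csf1r 20.5 FPKM, and the other 5 were under 1 FPKM, among them Ptprc at 0.899 FPKM and Itgam at 0.160 FPKM. No marker of either list was called.

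None of the 42 constitutive subunit genes was called as changed after IL-17, whereas 3 of the 5 inducible ones fell. In the limma fit 0 of the 42 were called, beside 1.95% of all tested genes, of which 0.95% were higher and 0.996% lower. At an unadjusted p under 0.05 there were 8 of the 42, beside 16.7% of all tested genes. Of the 8, Psma1, Psmc6 and Psme4 were higher, beside 8.89% of all tested genes, and Psmc2, Psmc4, Psmc5, Psmd4 and Psmg4 were lower, beside 7.84%. The median log2 fold change was -0.01, beside 0.02 over all tested genes, and single values lay between -0.30 for Psmg4 and 0.25 for Psmc6. For 41 of the 42 the 95% interval of the log2 fold change stayed within 0.5 of 0, beside 88.6% of all tested genes, and it reached further only for Psmg4. Every library of 1 group lay beyond every library of the other for 9 of the 42, beside 24.2% of all tested genes. Of the 9, 8 were lower with IL-17, beside 10.9% of all tested genes, and 1 was higher, beside 13.3%. The separated lower genes were Psmb6, Psmc2, Psmc4, Psmc5, Psmd4, Psmd9, Psme3 and Psmg4, and the higher one was Psme4.

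**Figure D1:**
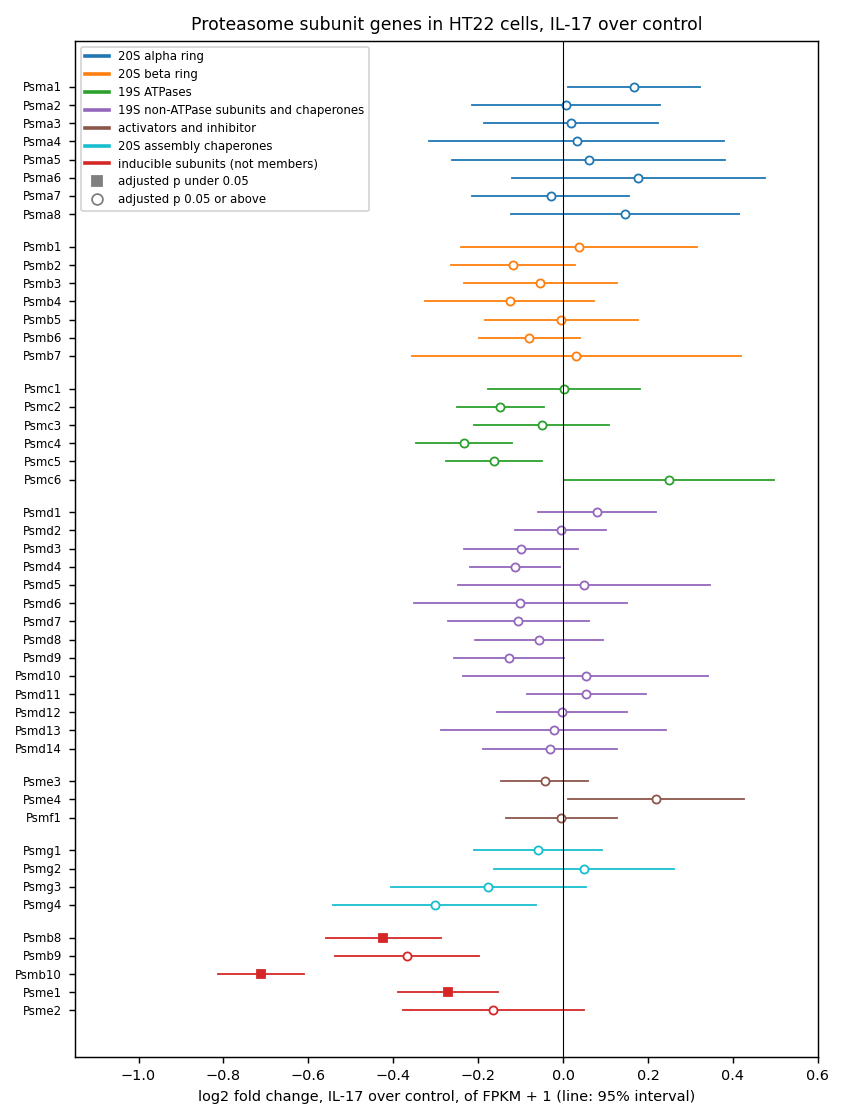
Log2 fold change of FPKM + 1, IL-17 over control, for the 42 constitutive subunit genes and below them the 5 inducible ones; the horizontal axis is in log2 units, points are estimates from 3 libraries per group and lines their 95% intervals. All constitutive genes have open points (adjusted p of 0.05 or above), and filled squares mark Psmb8, Psmb10 and Psme1.

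The 42 genes were transcribed at very different levels. Mean FPKM over all 6 libraries ran from 1.198 for Psma8, a subunit known from testis, to 248.4 for Psmb4, a structural beta subunit, with a median of 51.2. The beta ring genes had the highest median (156.8 FPKM, 7 genes), ahead of the 19S ATPases (97.8 FPKM, 6 genes), the alpha ring (52.8 FPKM, 8 genes), the other 19S subunits and their chaperones (31.2 FPKM, 14 genes), the 20S assembly chaperones (21.7 FPKM, 4 genes) and the activators and inhibitor (5.35 FPKM, 3 genes). Together the 42 took 0.819% ± 0.0345 of all FPKM in IL-17 libraries and 0.848% ± 0.0357 in control libraries (SD, n = 3 each). The 5 inducible genes took 0.0723% ± 0.00195 and 0.0930% ± 0.00261.

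**Figure D2:**
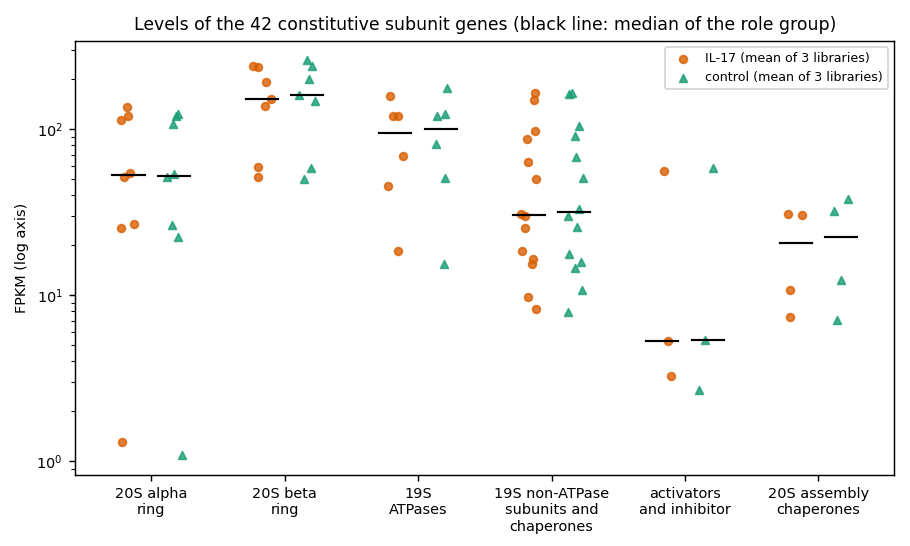
Mean FPKM of each constitutive subunit gene in the IL-17 libraries (circles) and the control libraries (triangles), by role, on a log axis; horizontal bars are medians of the role group. The beta ring genes have the highest median, and single genes of a ring differ from each other far more than the IL-17 and control means of a gene do.

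Psmb5, Psmb6 and Psmb7 encode the cutting subunits of the core, with chymotrypsin-like, caspase-like and trypsin-like activity in that order. Psmb5 (chromosome 14, 54614119 to 54618022, GRCm38, minus strand) was at 223.8, 233.7 and 264.3 FPKM under IL-17, against 257.9, 228.6 and 236.5 FPKM in controls. The groups overlapped, and the log2 fold change was 0.00 (95% interval -0.18 to 0.18; limma adjusted p = 0.985). Psmb6 was at 152.8, 151.7 and 152.6 FPKM under IL-17, against 170.1, 155.0 and 158.5 FPKM in controls. All of its IL-17 libraries lay below all of its control libraries, by little, with a log2 fold change of -0.08 (95% interval -0.20 to 0.04; limma adjusted p = 0.465). Psmb7 was at 47.1, 64.0 and 67.2 FPKM under IL-17, against 70.7, 49.5 and 54.2 FPKM in controls. It was the least even of all 42 within the groups, low in IL-17 library 1 and high in control library 1, and its interval was wide (log2 fold change 0.03, 95% interval -0.36 to 0.42; limma adjusted p = 0.947).

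Of the genes that encode their inducible replacements, Psmb8 and Psmb10 fell with IL-17. Psmb8 was at 45.1, 42.9 and 44.9 FPKM under IL-17, against 64.0, 57.0 and 58.4 FPKM in controls (log2 fold change -0.42, SE 0.06; limma adjusted p = 0.0131). Psmb10 was at 45.1, 46.1 and 44.9 FPKM under IL-17, against 74.0, 75.9 and 74.8 FPKM in controls (log2 fold change -0.71, SE 0.04; limma adjusted p = 0.000414). Both fell and their groups did not overlap. Psmb9 was at 9.74, 9.35 and 10.1 FPKM under IL-17, against 13.3, 11.6 and 13.8 FPKM in controls, without overlap, and missed the threshold (log2 fold change -0.37, SE 0.07; limma adjusted p = 0.0565). The Psmb8 call was lost without IL-17 library 2 (limma adjusted p = 0.0834), without control library 3 (0.0540) and with IL-17 library 1 left out together with control library 3 (0.0805).

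Within each library the inducible transcript was then set against the constitutive one whose place its protein takes. Psmb8 stood at 20.1%, 18.3% and 16.99% of Psmb5 with IL-17 and at 24.8%, 24.9% and 24.7% in controls, a log2 difference of -0.43. Psmb9 stood at 6.37%, 6.16% and 6.64% of Psmb6 with IL-17 and at 7.81%, 7.48% and 8.68% in controls, a log2 difference of -0.32. Psmb10 stood at 95.6%, 72.1% and 66.9% of Psmb7 with IL-17 and at 104.7%, 153.3% and 138.1% in controls, a log2 difference of -0.76. In all 3 pairs each IL-17 library had a lower ratio than each control library. For each pair p was 0.1 by an exact permutation test, two-sided, and 0.1 after Benjamini-Hochberg adjustment over the 3 ratios, which is the smallest that 3 against 3 libraries allow. In Psmb10 to Psmb7 the spread inside the groups comes from Psmb7, since Psmb10 itself was even.

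**Figure D3:**
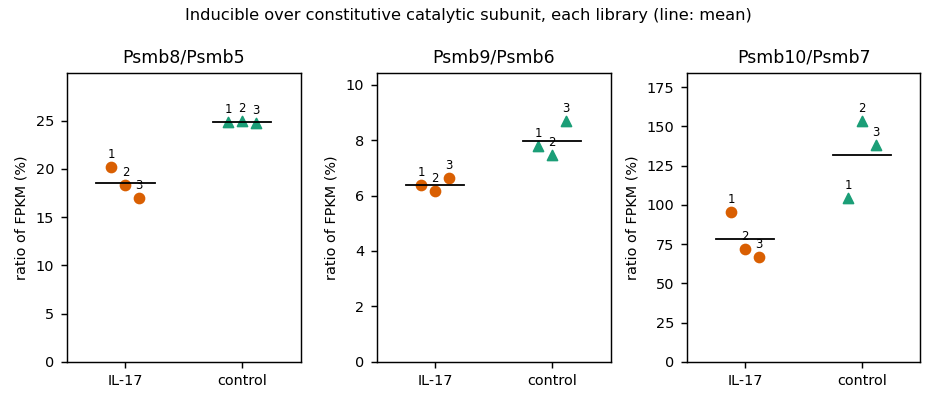
FPKM of the inducible catalytic subunit as a percentage of its constitutive counterpart, in each library (numbered points), for Psmb8 over Psmb5, Psmb9 over Psmb6 and Psmb10 over Psmb7; bars are group means and the axes start at 0. In each pair the 3 IL-17 libraries sit below the 3 control libraries.

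The promoter windows of Psmb5, Psmb6, Psmc4 and Psme1 are shown because they set catalytic genes with no detected change beside the subunit gene of smallest p and a called inducible gene. They run from 250 bases before to 50 bases after the RefSeq start (GRCm38.p6), 5′ to 3′ on the gene's strand. They lie at chr14:54617946-54618245 (minus strand), chr11:70525107-70525406 (plus strand), chr7:28050043-28050342 (minus strand) and chr14:55578244-55578543 (plus strand). Capitals mark TGACNNNGC, the core of the antioxidant response element bound by Nfe2l1 and Nfe2l2, in Psmb5 and Psmb6, and the core of the interferon-stimulated response element, GAAA and GAAA with 2 bases between them, in Psme1, where it reads on the opposite strand. The Psmc4 window holds no match to either.
Psmb5: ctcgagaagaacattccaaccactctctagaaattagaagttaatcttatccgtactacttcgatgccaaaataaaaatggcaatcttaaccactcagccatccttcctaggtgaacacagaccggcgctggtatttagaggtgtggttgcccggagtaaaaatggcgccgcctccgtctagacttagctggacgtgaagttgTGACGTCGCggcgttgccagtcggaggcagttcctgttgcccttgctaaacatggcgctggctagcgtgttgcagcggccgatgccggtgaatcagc
Psmb6: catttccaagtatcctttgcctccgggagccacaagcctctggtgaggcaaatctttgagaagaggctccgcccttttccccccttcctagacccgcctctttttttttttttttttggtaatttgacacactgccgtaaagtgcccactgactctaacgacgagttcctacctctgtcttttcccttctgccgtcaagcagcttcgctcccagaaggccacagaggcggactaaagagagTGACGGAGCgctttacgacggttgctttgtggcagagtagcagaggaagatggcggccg
Psmc4: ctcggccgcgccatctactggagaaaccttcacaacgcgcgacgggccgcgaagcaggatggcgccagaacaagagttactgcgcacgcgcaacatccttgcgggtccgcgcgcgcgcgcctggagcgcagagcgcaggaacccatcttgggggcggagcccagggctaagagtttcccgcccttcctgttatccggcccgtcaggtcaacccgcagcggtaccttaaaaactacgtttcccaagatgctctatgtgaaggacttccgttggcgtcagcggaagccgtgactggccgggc
Psme1: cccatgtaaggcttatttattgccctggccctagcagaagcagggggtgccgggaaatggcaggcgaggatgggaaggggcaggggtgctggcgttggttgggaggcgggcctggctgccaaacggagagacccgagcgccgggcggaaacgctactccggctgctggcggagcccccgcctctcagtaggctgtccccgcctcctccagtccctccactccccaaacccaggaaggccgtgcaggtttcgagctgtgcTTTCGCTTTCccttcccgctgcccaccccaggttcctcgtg

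Of the 42 genes, 34 had such a window, in 36 windows, leaving Psma8, Psmb1, Psmb2, Psmb7, Psmc3, Psmd3, Psmd7 and Psmg2. Searched on both strands, TGACNNNGC was found in 6 of the 36 windows (Psmb5, Psmb6, Psmc6, Psmd9, Psmd12 and Psme4), beside 12.4% of all 32851 windows of the same length. CCAAT, the CCAAT box, was found in 12 of the 36, beside 37.4% of all windows. The interferon-stimulated core was found in 4 of the 36 (Psmb3, Psmd4, Psmd9 and Psmg4), beside 3.44% of all windows. Of the 5 inducible genes, all with a window, the interferon-stimulated core was found in Psme1 and not in Psmb8, Psmb9, Psmb10 or Psme2, CCAAT was found in Psmb9 alone, and TGACNNNGC in 0. The windows of the inducible Psmb8, Psmb9 and Psme1 lie inside the annotated span of these genes. So do those of the constitutive Psmd5, Psmd9, Psmd13 and Psmf1. Sequence before the outermost annotated starts of these genes was thus not searched, and the matches in Psme1 and Psmd9 lie after that start. Matches are a description of the letters; the data do not show binding.

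The structural beta genes Psmb1, Psmb2, Psmb3 and Psmb4 gave no call. Psmb4 was at 223.3, 247.4 and 240.7 FPKM under IL-17, against 291.6, 235.6 and 251.8 FPKM in controls, overlapping groups with control library 1 far above the rest (log2 fold change -0.13, SE 0.09; limma adjusted p = 0.488). Psmb4 and Psmb5, first and second in level as listed, did not differ beyond their spread, as Psmb5 was the higher in IL-17 libraries 1 and 3 and Psmb4 in the other 4. The level of Psmb5 also depends on how reads were shared with its near copy Gm3375, listed at a mean of 190 FPKM and described below. Psmb2 had the smallest p of the ring (log2 fold change -0.12, SE 0.06; limma adjusted p = 0.387), with 138.9, 129.9 and 142.6 FPKM under IL-17, against 155.5, 138.9 and 152.5 FPKM in controls. Psmb1 was lowest in level, at 44.9, 54.8 and 54.7 FPKM under IL-17, against 57.5, 43.1 and 50.2 FPKM in controls.

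In the alpha ring 7 of 8 genes had a log2 fold change above 0, beside 7140 of all 12953 tested genes, and 0 of 8 were called. Psma1 had the smallest p, at 23.5, 25.5 and 26.9 FPKM under IL-17, against 23.8, 21.5 and 21.9 FPKM in controls (log2 fold change 0.17, SE 0.07; limma adjusted p = 0.265). IL-17 library 1 lay inside the control range for it. Psma6, the highest of the ring, was at 115.7, 146.9 and 145.8 FPKM under IL-17, against 140.9, 112.8 and 107.5 FPKM in controls (log2 fold change 0.18, SE 0.13; limma adjusted p = 0.516). Again IL-17 library 1 was low and control library 1 high, so that the groups overlapped. Psma8 stayed between 0.911 and 1.46 FPKM in all libraries. The ring's median log2 fold change was 0.05, and it ran from -0.01 to 0.18 over 20 alternative settings.

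The ATPases, the motor at the base of the cap, held 4 of the 8 genes with an unadjusted p under 0.05, which are 4 of the 6 ATPases, beside 16.7% of all tested genes. Of the 6, 0 were called over all genes, beside 1.95%. Psmc4 (chromosome 7, 28041707 to 28050101, GRCm38, minus strand) was at 69.2, 67.0 and 71.3 FPKM under IL-17, against 83.8, 79.3 and 81.4 FPKM in controls. Its groups did not overlap, and it had the smallest p of the 42 (log2 fold change -0.23, SE 0.05, 95% interval -0.35 to -0.12; limma adjusted p = 0.0650). The call depends on the setting: limma gave an adjusted p of 0.0446 when protein-coding genes alone were tested, 0.0127 with array weights and 0.0485 after correction for GC content and length, and the range over 20 alternatives was 0.0127 to 0.279.

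Psmc2 was at 45.6, 46.1 and 45.0 FPKM under IL-17, against 51.5, 50.7 and 49.5 FPKM in controls (log2 fold change -0.15, SE 0.04; limma adjusted p = 0.158). Psmc5, the highest of the ATPases, was at 156.4, 163.7 and 157.6 FPKM under IL-17, against 184.1, 172.4 and 178.7 FPKM in controls (log2 fold change -0.16, SE 0.05; limma adjusted p = 0.158). Both were lower in every IL-17 library. Psmc6, the lowest of the ATPases, went the other way, at 16.0, 20.5 and 19.1 FPKM under IL-17, against 17.3, 14.7 and 14.2 FPKM in controls (log2 fold change 0.25, SE 0.11; limma adjusted p = 0.296), with IL-17 library 1 inside the control range. The 6 ATPases, which sit together in a ring in the protein complex, thus spanned -0.23 to 0.25 on the log2 scale, and Psmc1 and Psmc3 lay between these, at 0.00 and -0.05.

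Among the 14 other cap subunits and base chaperones, 10 had a log2 fold change below 0, beside 5813 of all 12953 tested genes, and 0 were called. Psmd4, a receptor for ubiquitin chains, was at 150.9, 152.1 and 146.7 FPKM under IL-17, against 164.9, 163.7 and 158.3 FPKM in controls, without overlap (log2 fold change -0.11, SE 0.05; limma adjusted p = 0.264). Psmd2, the highest of them and a large scaffold of the cap, was at 161.5, 164.3 and 170.2 FPKM under IL-17, against 163.0, 167.5 and 167.5 FPKM in controls. Its groups overlapped throughout, and the 95% interval of its log2 fold change, -0.11 to 0.10, was among the narrowest. Psmd14, the deubiquitinase of the lid, had a log2 fold change of -0.03 (95% interval -0.19 to 0.13). Psmd5, Psmd9 and Psmd10 encode chaperones that help assemble the base and are absent from the finished cap. Psmd9 was at 9.61, 9.73 and 10.1 FPKM under IL-17, against 11.2, 10.3 and 11.0 FPKM in controls (log2 fold change -0.13, SE 0.06; limma adjusted p = 0.304). Psmd5, lowest in level, and Psmd10 were at 0.05 each on the log2 scale, with overlapping groups.

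Psme3 encodes a nuclear activator of the core, Psme4 a large activator that caps it without ATP, and Psmf1 a protein known as an inhibitor. Psme4 was at 3.53, 3.17 and 3.104 FPKM under IL-17, against 2.26, 2.93 and 2.84 FPKM in controls, higher in every IL-17 library (log2 fold change 0.22, SE 0.09; limma adjusted p = 0.275). Psme3 was at 56.5, 55.1 and 57.5 FPKM under IL-17, against 57.6, 58.2 and 58.5 FPKM in controls, separated by a small margin (log2 fold change -0.04, SE 0.04; limma adjusted p = 0.662). Psmf1 stayed between 5.09 and 5.52 FPKM in all 6 libraries. Of the inducible activator genes 1 fell. Psme1 was at 88.6, 87.0 and 87.3 FPKM under IL-17, against 110.2, 100.8 and 107.1 FPKM in controls (log2 fold change -0.27, SE 0.05; limma adjusted p = 0.0447), a call lost without any 1 of the 6 libraries (limma adjusted p between 0.0673 and 0.199). Psme2 was at 75.1, 81.5 and 89.0 FPKM under IL-17, against 102.8, 83.9 and 89.3 FPKM in controls, with overlap (log2 fold change -0.16, SE 0.09; limma adjusted p = 0.404).

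Psmg1 to Psmg4 encode chaperones that build the alpha ring. Psmg4 (chromosome 13, 34162964 to 34178173, GRCm38, plus strand) had the largest estimate of all 42, at 29.1, 31.2 and 31.6 FPKM under IL-17, against 42.6, 40.1 and 32.1 FPKM in controls (log2 fold change -0.30, SE 0.10, 95% interval -0.54 to -0.06; limma adjusted p = 0.200). Control library 3 lay just above the IL-17 libraries, and without it the log2 fold change was -0.42 and the limma adjusted p 0.0499. Psmg3 was at 10.7, 11.9 and 9.85 FPKM under IL-17, against 13.6, 10.8 and 12.7 FPKM in controls (log2 fold change -0.18, SE 0.10; limma adjusted p = 0.410). Psmg1 and Psmg2 were at -0.06 and 0.05 on the log2 scale, and 0 of the 4 were called.

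The subunit genes deviated together by library inside the groups. In 32 of the 42 the lowest IL-17 value was in library 1, beside 33.9% of all tested genes, and in 33 the highest control value was in library 1, beside 30%. The lowest control value was in library 2 in 27 of the 42, beside 32.8%. The median deviation of the 42 from their group means was -0.07, 0.02 and 0.06 on the log2 scale in IL-17 libraries 1, 2 and 3 and 0.10, -0.06 and -0.02 in control libraries 1, 2 and 3. Psmb7, Psma4, Psma5 and Psma6 had the largest pooled SD inside the groups, 0.27, 0.24, 0.22 and 0.20 on the log2 scale. Psmc2, Psme3, Psmd4 and Psmd2 had the smallest, between 0.0229 and 0.0313. The median over the 42 genes moved between -0.06 and 0.02 when 1 library was left out, so its sign is not settled.

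**Figure D4:**
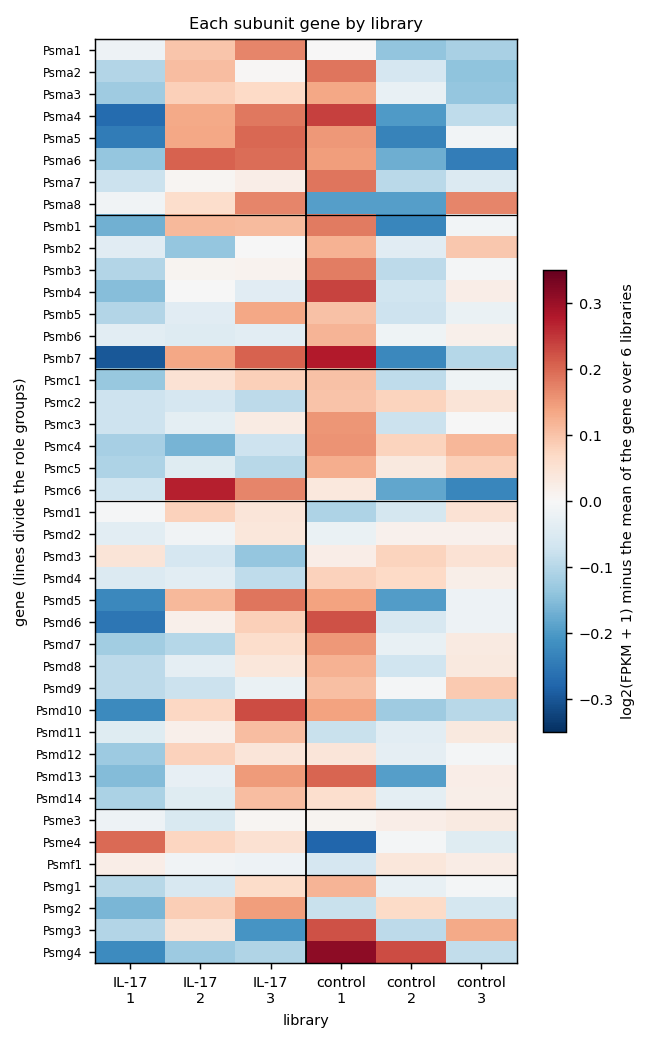
Each constitutive subunit gene (rows, divided by role) in each library (columns, IL-17 then control), as log2(FPKM + 1) minus the mean of the gene over the 6 libraries; red is above and blue below that mean. IL-17 library 1 is mostly blue and control library 1 mostly red, as in Psma4 and Psmb7.

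Lung and liver transcripts were also uneven between the libraries. All 9 lung markers searched were in the table, and they summed to between 63.9 and 168.0 FPKM in IL-17 libraries and between 4.94 and 57.2 FPKM in control libraries, with Sftpd, Cldn18 and Scgb3a2 at 0 in control libraries 1 and 2. All 11 liver markers were in the table and summed to between 15.6 and 129.1 FPKM with IL-17 and between 63.4 and 113.7 FPKM in controls. The 7 macrophage markers summed to between 268.8 and 306.9 FPKM with IL-17 and between 258.7 and 277.9 FPKM in controls. With the IL-17 library of most liver RNA and the control library of most lung RNA left out (libraries 1 and 3), 0 of the 42 subunit genes were called and their median log2 fold change was 0.01. In the libraries that remained, lung markers summed to 63.9 and 168.0 FPKM with IL-17, against 5.54 and 4.94 FPKM in controls. Most of these control sums was Napsa, at 4.86 and 4.35 FPKM, which stayed between 4.05 and 4.86 FPKM in all libraries. Liver markers summed to 15.6 and 24.4 FPKM with IL-17, against 113.7 and 96.1 FPKM in controls. This setting therefore cannot separate lung and liver RNA from treatment, and fewer libraries lower its power. The part of lung and liver RNA in the single values was not tested further.

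The fold changes of the subunit genes were lower where the GC content of their transcripts was higher. Across the 42 genes, GC content ran from 38.5% for Psme4 to 57.1% for Psmb5, and its Spearman correlation with the log2 fold change was -0.68, against -0.25 across all tested genes. Genes share the libraries, so this is a description. Of the 21 genes of lower GC content 16 had a log2 fold change above 0, with a median of 0.05, and of the 21 of higher GC content 20 were below 0, with a median of -0.08. Psmc6 and Psme4, at 41.0% and 38.5% GC, were the highest, and Psmg4 and Psmc4, at 55.2% and 53.8%, the lowest. After each library was corrected for GC content and transcript length over all tested genes, the correlation across the 42 was -0.47. The part of GC content in the single values was not tested beyond this.

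**Figure D5:**
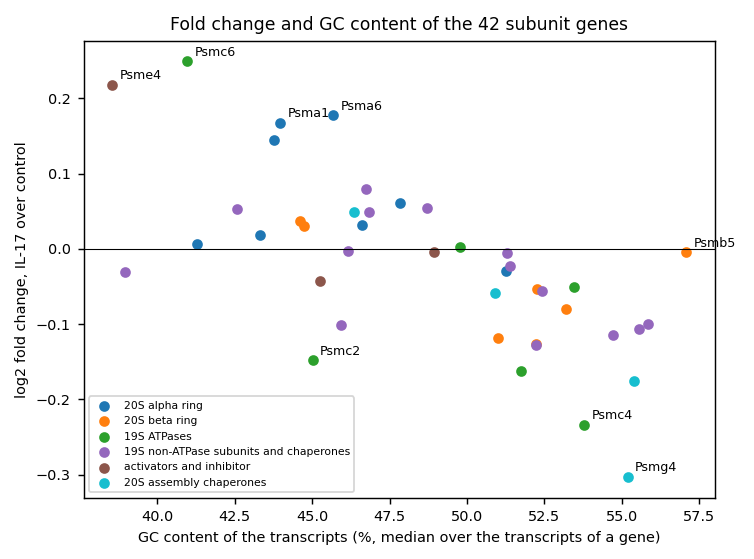
Log2 fold change, IL-17 over control, of each constitutive subunit gene against the GC content of its transcripts in percent, coloured by role. The points run downwards, with Psmc6 and Psme4 at the upper left and Psmc4 and Psmg4 at the lower right, while Psmb5 has the highest GC content and a log2 fold change of 0.00.

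Reads of some subunit genes may have been shared with other genes. Near-identical sequence, at least 95% over 200 bases, was found in other annotated genes for 12 of the 42, and for 10 an exon overlapped another gene. Psmb5 had the most expressed copy, the processed pseudogene Gm3375, 98.9% identical over 796 bases and listed at 190.5, 207.0 and 154.2 FPKM under IL-17, against 215.4, 183.9 and 191.6 FPKM in controls. Added together, Psmb5 and Gm3375 gave a log2 fold change of -0.04, and Psmb8 stood at 10.9%, 9.73% and 10.7% of that sum with IL-17 and at 13.5%, 13.8% and 13.6% in controls. Psma3 had Gm13835, listed at 51.9, 68.1 and 60.2 FPKM under IL-17, against 68.3, 58.4 and 58.1 FPKM in controls, above Psma3 itself. For Psma3, Psma4, Psma5, Psmb3, Psmb5 and Psmd2 the sum with copies of at least 1 FPKM had log2 fold changes between -0.06 and 0.03. The inducible Psme2 had Psme2b, 99.4% identical over 794 bases and listed at a mean of 62.0 FPKM. Added together, Psme2 and Psme2b gave a log2 fold change of -0.13, against -0.16 for Psme2 alone. Psmb7 overlaps Nek6 on the opposite strand. The inducible Psmb9 likewise overlaps Tap1, listed at a mean of 24.7 FPKM, by up to 212 exon bases on the opposite strand. The labels do not say if quantification used strand, so the values of Psmb7 and Psmb9 may include reads of these neighbours.

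The other genes of the pathway that were searched gave no call either. Of 33 listed genes outside the Psm names, 32 were in the table and tested; 0 were called by limma over all genes, beside 1.95% of all tested genes, and 2 had an unadjusted p under 0.05, beside 16.7%. Nfe2l2, the antioxidant response regulator, was at 24.7, 24.7 and 25.5 FPKM under IL-17, against 19.2, 21.6 and 22.2 FPKM in controls, without overlap (log2 fold change 0.24, SE 0.06; limma adjusted p = 0.117). Nfe2l1, the regulator of the subunit genes, was at 39.6, 38.7 and 41.3 FPKM under IL-17, against 40.6, 42.2 and 41.3 FPKM in controls, with a 95% interval of the log2 fold change of -0.17 to 0.06. Its transcript level does not measure the processing that activates its protein.

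Of 16 genes for assembly factors, further subunits and shuttles, 11 had a log2 fold change above 0, beside 7140 of all 12953 tested genes, and 0 were called. Pomp, which helps the beta ring form, was at 19.9, 23.7 and 24.1 FPKM under IL-17, against 24.4, 19.2 and 20.7 FPKM in controls (log2 fold change 0.07, SE 0.10; limma adjusted p = 0.770). It showed the same low IL-17 library 1 and high control library 1 as many core genes. Adrm1, a ubiquitin receptor of the cap, was at 38.6, 39.8 and 35 FPKM under IL-17, against 41.8, 41.8 and 40.8 FPKM in controls, without overlap (log2 fold change -0.13, SE 0.06; limma adjusted p = 0.317). The 6 genes for substrate extraction, Vcp among them, lay between -0.08 and 0.08 on the log2 scale.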

How the data were processed

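The authors deposited FPKM for each Ensembl gene in each library. Per the submitters' processing notes, mm10, fastp, StringTie and edgeR were involved; their order, the aligner and the annotation are not given in the sources used here. Per the labels' protocols, libraries were poly(A)-selected, paired-end and dUTP-marked, and a SMARTER kit is also named. Groups follow the treatment label.

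Symbols and coordinates came from GENCODE vM21 (GRCm38), which held 26525 of the identifiers and lacked 70. FPKM, relative to each library's total, were used as deposited. limma 3.58.1 (R 4.3.3, variance trend) was run on log2(FPKM + 1), a scale that understates changes of low genes; 13642 genes under a mean of 0.5 FPKM were not tested. GC content and length are medians over a gene's transcripts. Near copies were found with BLAST 2.17.0. The fit was tested on simulated data. Intervals are at the 95% level and unadjusted.

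Named genes are, per role, the 2 of smallest p and the highest and lowest in level, plus the catalytic, activator and inducible genes, and of the pathway list Nfe2l1, Nfe2l2, Pomp, Adrm1 and the 2 of smallest p; any other gene was picked with its values in view. The members and lists were chosen with earlier results of these data known. Alternatives changed pseudocount, filter, scaling, variance model and libraries; a GC and length correction was added after seeing the data. The values of 1 gene of the pathway list are not reported here.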

Additional observations from a re-analysis of the deposited data

How the results depend on the processing

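Of the 42 constitutive subunit genes, 0 were called by limma in the main comparison and in 16 of 20 alternatives. The count was 1 with protein-coding genes alone and after correction for GC content and length (Psmc4 in both), and 2 with array weights (Psmc4 lower, Psmc6 higher). Leaving out 1 library gave 0 to 1, with Psmg4 called without control library 3. Of the 32 pathway genes, 1 was called with array weights and 1 after the GC and length correction, and 0 in the other alternatives. Over all genes the count was 252, and 135 with no filter, 1015 with array weights and 160 with IL-17 library 1 left out together with control library 3; leaving out 1 library gave 117 to 251. Leaving out libraries lowers the number of samples; for the other settings the cause was not tested. The titles number the libraries 1 to 3 in both groups. The deviations of same-numbered libraries correlated at -0.14, 0.08 and 0.21, and those of other pairs between -0.31 and 0.25. Pairing by number was thus neither shown nor excluded. With the replicate block 80 genes were called, and 0 of the 42. Of the inducible genes the block ended the calls of Psmb8 (limma adjusted p = 0.0749) and Psme1 (0.205), while Psmb10 was called (0.0179). Medians of the 42 and of the role groups moved by less than the spread between libraries in all 20 alternatives. That spread was wide for the alpha ring, at 0.14 on the log2 scale, and the ring's median ran from -0.01 to 0.18. The median of the 42 was above 0 in 4. All ratios of inducible to constitutive subunits stayed lower with IL-17 in their 10 alternatives, from -0.37 to -0.49 for Psmb8 to Psmb5, -0.26 to -0.37 for Psmb9 to Psmb6 and -0.64 to -0.91 for Psmb10 to Psmb7. Psmb9 was called in 8 of 20 alternatives, Psmb8 was not in 4 and Psme1 was not in 12.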
